A study of Homo sapiens with 24 samples.

Results

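A set of 150 array probes differed in the same direction between cells carrying FOXP1 and cells carrying GFP in 2 neuroblastoma lines, IMR-32 and CHP-212. They were chosen by their ratios in those lines out of 43291 probes that are not controls (0.346%). At each of 4 time points the intensity of the FOXP1 cells was divided by that of the GFP cells, and a probe was selected on all 8 log2 ratios being at least 0.8 (87 higher members) or all 8 being at most -0.8 (63 lower members). It also had to be well above background, a flag of the scanner software, on at least 4 of the 8 arrays of each line. The probe of FOXP1 itself was left out. The ratios of IMR-32 and CHP-212 therefore describe the members and support nothing further, and the remaining line, SK-N-BE(2), took no part in the choice.

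The study asked what FOXP1, a transcription factor, does in neuroblastoma cells, and used established human lines of this childhood tumour of the sympathetic nervous system. The lines IMR-32 and CHP-212, and also SK-N-BE(2), each carried either FOXP1 or GFP in a retroviral vector with a promoter that responds to doxycycline. RNA came from cells given the drug for 0, 12, 24 or 72 h. This gave 6 groups of 4 arrays, which are IMR-32 GFP, IMR-32 FOXP1, CHP-212 GFP, CHP-212 FOXP1, SK-N-BE(2) GFP and SK-N-BE(2) FOXP1. The study's text gives the cultures as polyclonal and the promoter as leaky without the drug. Each group's 4 arrays follow a culture over time, so a p-value here measures only their spread. Within every slide the GFP cells were on array positions 1 and 3 and the FOXP1 cells on positions 2 and 4, so transgene and position cannot be told apart, and neither can line and slide. The share of probes well above background was 72.8 to 82.3% over the IMR-32 arrays and 73.6 to 80.4% over those of SK-N-BE(2). In CHP-212 this share was 53.9 to 60.4% at 0 and 12 h and 78.0 to 81.5% at 24 and 72 h.

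FOXP1 belongs to the forkhead family, whose members bind DNA through a winged-helix domain, and it is best known as a repressor that acts in the development of neurons, lung, heart and lymphocytes. Neuroblastoma cells derive from precursors of sympathetic neurons and of the adrenal medulla, and lines of this tumour differ in how far they express genes of noradrenaline synthesis, of neuronal contacts or of mesenchymal cells. The genes below are grouped by such roles, which are background and not a result of these arrays.

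The FOXP1 probe, read first as a check of the labels, had normalized intensities of 8127, 8888, 9031 and 7528 in FOXP1 cells of IMR-32 at 0, 12, 24 and 72 h and of 2725, 2924, 3539 and 3099 in GFP cells. In CHP-212 the intensities were 7702, 12975, 9709 and 10195 with FOXP1 and 2234, 2933, 2678 and 2614 with GFP, and in SK-N-BE(2) they were 9519, 8255, 7289 and 8500 on the arrays labelled FOXP1 and 9788, 10855, 8730 and 8476 on the GFP arrays. The groups did not overlap in IMR-32 and CHP-212, whereas in SK-N-BE(2) they overlapped and the probe was not higher with the FOXP1 label. Its log2 difference in SK-N-BE(2) was -0.20 with a standard error of 0.16 (adjusted p = 0.911, limma). Each direction given for SK-N-BE(2) follows the array labels and not a measured excess of FOXP1.

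The dim filter was met in both lines by 31451 probes. Of these, 1453 (4.62%) had all 4 ratios of IMR-32 at or above 0.8 and 1309 (4.16%) at or below -0.8, and the counts in CHP-212 were 499 (1.59%) and 301 (0.957%). The 87 higher members are 5.99% of the IMR-32 list and 17.4% of the CHP-212 list, and the 63 lower members are 4.81% and 20.9%. Probes that passed in opposite directions also occurred, 34 of them higher in IMR-32 and lower in CHP-212 and 77 the other way. Of the members, 44 higher and 27 lower were well above background on all 16 arrays. The dimmer group was below that limit on all 4 arrays in IMR-32 for 5 higher and 12 lower members and in CHP-212 for 0 and 1, so their ratios rest on signals near background. The outlier flag was set for 0 member spots of these arrays.

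Close to the limit, the weakest ratio of higher members with a symbol was 0.806 for ARMC9, 0.814 for PCDHB16 and 0.819 for BCL6. RFTN1 (0.799), SOX4 (0.798) and DNAJB6 (0.791) were left out by a narrow margin. Among lower probes with a symbol the limit was passed by ARNT2 (-0.802), LTBP4 (-0.804) and CAMKV (-0.810) and missed by RNF182 (-0.791), CLMN (-0.766) and KIAA1305 (-0.765). RFTN1, a protein of membrane rafts that missed the limit in CHP-212 at 12 h, had ratios of 2.89, 2.51, 3.09 and 3.09 in SK-N-BE(2).

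**Figure D1:**
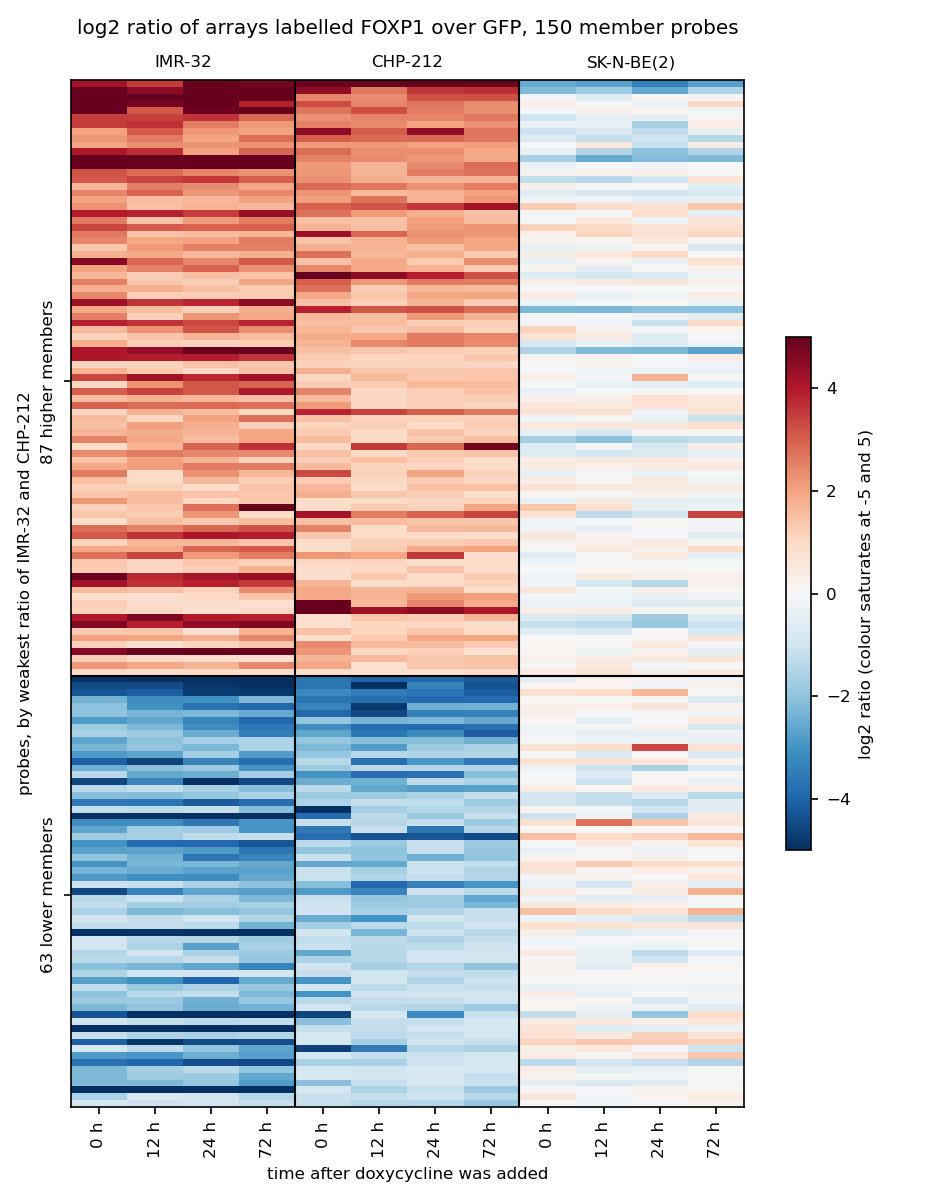
Log2 ratio of arrays labelled FOXP1 over GFP for each of the 150 member probes (vertical, ordered by the weakest of the 8 ratios that chose them) at 4 time points in 3 lines (horizontal). The 8 columns of IMR-32 and CHP-212 are of the same colour by the rule, while the SK-N-BE(2) columns are pale, with medians of -0.08 for the higher and -0.03 for the lower members tested.

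The members differed widely in size. The median log2 ratio, averaged over the time points of a probe, was 2.19 in IMR-32 (4.56-fold) and 1.73 in CHP-212 (3.32-fold) for the higher members, and -2.29 (4.89-fold) and -1.58 (2.99-fold) for the lower ones. The range among higher members was 0.88 to 6.56 in IMR-32 and 0.85 to 6.46 in CHP-212, and lower members went down to -7.58, against signals at background, and to -4.57. The ratio was larger in size in IMR-32 for 60 of 87 higher and 42 of 63 lower members. Spearman's rho between the mean ratios of the 2 lines was 0.09 over the 87 higher and 0.20 over the 63 lower members. It describes values that the rule truncated in both lines and that in part rest on signals near background, and probes are not independent replicates. A mean of at least 2 in size in both lines was reached by 18 higher and 16 lower members.

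A ratio past the limit at each time was part of the rule, so the medians by time only describe the members. For the higher members the median was 2.16, 1.97, 2.17 and 2.34 at 0, 12, 24 and 72 h in IMR-32 and 1.81, 1.55, 1.71 and 1.57 in CHP-212. For the lower members the median size below 0 was 2.22, 2.25, 2.39 and 2.55 in IMR-32 and 1.77, 1.65, 1.44 and 1.47 in CHP-212. A log2 ratio larger in size by at least 1 at 72 h than at 0 h in both lines was found for 5 members. They were FILIP1L, ACTG2, PCDH20, KREMEN2 and KIAA1522 (now NHSL3). The reverse was found for 1 lower member without a symbol, from -4.50 to -2.70 in IMR-32 and from -2.84 to -1.30 in CHP-212. This group of 5 was picked after its values were seen and was not tested.

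ACTG2, a smooth muscle actin, shows how such a ratio arose. Its intensities in IMR-32 were 433, 298, 246 and 435 with FOXP1 and 194, 115, 36.1 and 9.77 with GFP at the 4 times, and in CHP-212 they were 5353, 2111, 1350 and 1429 with FOXP1 and 2830, 861, 603 and 366 with GFP. The GFP cells lost signal at each step in both lines, and the FOXP1 cells of IMR-32 ended near their level at 0 h. In such bulk RNA, fewer cells with a transcript and less of it per cell cannot be told apart. For FILIP1L, named after its likeness to a filamin-binding protein, the ratios were 1.00, 1.74, 2.90 and 3.64 in IMR-32 and 1.03, 3.50, 2.87 and 4.82 in CHP-212. In SK-N-BE(2) they were -0.63, -0.14, -0.78 and 0.30.

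Gene symbols are known here for 91 members, 52 higher and 39 lower, because the array files name probes only and the symbols come from a supplementary table of the study that was held in part. That table holds genes that the study gave as changed with FOXP1. Shares among genes with a symbol are therefore not shares of all measured genes. Of these, 88 were matched to RefSeq genes, 85 by accession, 1 by symbol and 2 by an older name, and 3 (LOC131873, RP11-138L21.1 and LOC387763) were not. The other 59 members are counted but mostly not named.

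Secreted proteins were among the higher members whose weakest ratio was largest. GREM1 (gremlin), which binds and blocks bone morphogenetic proteins, was higher with FOXP1 in both lines. GREM1 had intensities of 612, 261, 458 and 333 in FOXP1 cells of IMR-32 and of 5.32, 6.86, 8.51 and 5.59 in GFP cells. In CHP-212 they were 972, 892, 623 and 990 against a range of 67.9 to 177. The groups were apart in both lines, and since GFP cells of IMR-32 gave no signal well above background, the transcript was at least 29.5-fold higher there. In SK-N-BE(2) GREM1 was near background on all 8 arrays, between 5.07 and 7.84.

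LTBP4, a matrix protein that holds latent TGF-beta, was lower, with mean ratios of -1.20 in IMR-32 and -1.16 in CHP-212.

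CRH, the hypothalamic hormone that starts the stress response and that sympathetic tumours can produce, was 235, 285, 448 and 360 in FOXP1 cells of IMR-32 and 7.23, 10.6, 4.82 and 24.0 in GFP cells. In CHP-212 it was 12085, 5336, 5075 and 3519 with FOXP1 and 1255, 969, 804 and 691 with GFP. The SK-N-BE(2) cells gave 69867, 70179, 47481 and 110558 on the arrays labelled FOXP1 and 56152, 70668, 60044 and 53903 on the GFP arrays. CRH was thus high on every SK-N-BE(2) array and the groups overlapped (log2 difference 0.12, standard error 0.22, adjusted p = 0.979, limma). ADM (adrenomedullin), a peptide that widens blood vessels, had mean log2 ratios of 3.24 ± 0.27 (SD, n = 4) in IMR-32 and 1.87 ± 0.29 (SD, n = 4) in CHP-212. In SK-N-BE(2) its ratio was -1.23, -1.34, -0.88 and 0.69, with the array of 72 h on the other side of 0. CRH and ADM were the 2 members among 24 well-measured genes of peptide hormones, chemokines and their receptors (8.33%), against 91 of 2067 probes with a symbol (4.40%). The role lists used here were put together with earlier results known, and their well-measured genes are only those of the supplementary table. Such shares are therefore descriptions and were not tested.

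**Figure D2:**
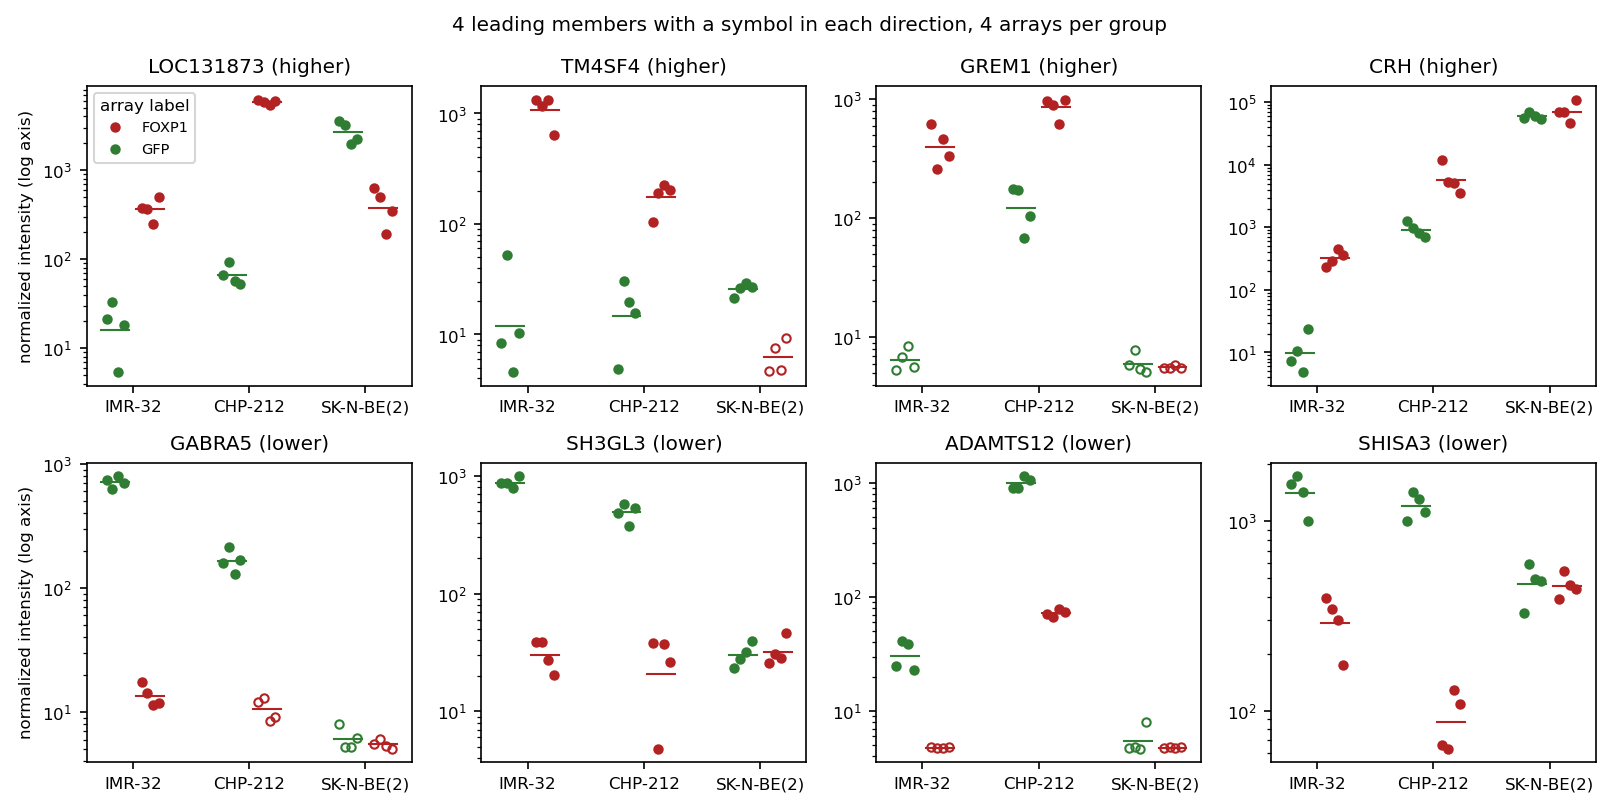
Normalized intensity (log axis) on each array for the 4 higher and the 4 lower members with a symbol whose weakest ratio was farthest from 0, by line, with FOXP1-labelled arrays in red and GFP arrays in green, a line at the geometric mean and open points for groups with 0 arrays well above background. FOXP1 and GFP arrays are apart in IMR-32 and CHP-212 by the rule, and in SK-N-BE(2) LOC131873 and TM4SF4 are apart in the opposite order.

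Proteins of the neuronal surface are the next group. Of 38 well-measured genes of axon guidance and neuronal adhesion, 8 were members (21.1%, against 4.40% of well-measured probes with a symbol), 6 higher and 2 lower. The higher ones were CDH18, a cadherin of the nervous system, NRP2, a co-receptor for semaphorins and vascular growth factors, and the protocadherins PCDHB7, PCDHB9, PCDHB16 and PCDH20, which mediate contacts between neurons. The probes of PCDHB7, PCDHB9 and PCDHB16 belong to a cluster of similar genes, and their signals may not be separate. The lower ones were SEMA3A, a secreted repellent of axons, and PLXND1, a receptor for semaphorins.

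CDH18 intensities in IMR-32 were 6051, 7823, 12447 and 11796 with FOXP1 and 547, 732, 1026 and 1587 with GFP. In CHP-212 they were 335, 448, 417 and 429 with FOXP1 and 68.9, 81.5, 76.8 and 69.8 with GFP. There was no overlap, and mean log2 ratios were 3.34 ± 0.31 (SD, n = 4) and 2.45 ± 0.14 (SD, n = 4). NRP2 had mean ratios of 2.12 and 1.73, PCDHB7 of 2.30 and 1.18, PCDHB9 of 3.81 and 1.15, PCDHB16 of 5.24 and 1.30 and PCDH20 of 2.42 and 1.51 in IMR-32 and CHP-212.

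SEMA3A was 167, 210, 206 and 162 in GFP cells of IMR-32 and 8.35, 4.76, 4.75 and 4.75 in FOXP1 cells, which is at least 14.4-fold lower against the background limit. In CHP-212 the GFP cells had 156, 216, 158 and 187 and the FOXP1 cells 6.22, 116, 17.4 and 87.4. The FOXP1 arrays of CHP-212 were below all GFP arrays but spread widely, with ratios of -4.64, -0.89, -3.18 and -1.10. For PLXND1 the mean ratio was -1.68 in IMR-32, and in CHP-212 the ratios were -3.00, -0.91, -0.91 and -0.90, with the ratio of 0 h apart from the rest.

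Transmitter receptors and channels were represented by 3 of 25 well-measured genes (12.0%, against 4.40% of well-measured probes with a symbol). GABRA5, a subunit of the receptor for the inhibitory transmitter GABA, was the lower member with a symbol whose weakest ratio was farthest from 0. It gave 749, 629, 798 and 706 with GFP and 17.6, 14.2, 11.3 and 11.9 with FOXP1 in IMR-32, and 158, 214, 130 and 169 with GFP against 12.1, 13.0, 8.39 and 9.15 with FOXP1 in CHP-212. The groups were far apart, and in CHP-212, where 0 of 4 FOXP1 arrays were well above background, GABRA5 was at least 5.05-fold lower.

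KCNK1, a potassium channel of the leak type, had 1009, 1393, 1596 and 1538 in GFP cells of IMR-32 and 7.84, 8.84, 5.19 and 7.08 in FOXP1 cells (at least 108-fold lower). In CHP-212 the channel stayed high in both cultures, with 21813, 22327, 19822 and 23756 against 9397, 9824, 10604 and 13029. The same direction thus covered signals at background in IMR-32 and a mean ratio of -1.04 in CHP-212. GRIA3, a subunit of the excitatory AMPA receptor, was the higher member, with 228, 178, 206 and 307 with FOXP1 and 6.98, 20.6, 7.03 and 7.49 with GFP in IMR-32, where 1 of 4 GFP arrays was well above background. In CHP-212 its mean ratio was 2.69 ± 0.38 (SD, n = 4). All 3 genes were below the limit for testing in SK-N-BE(2).

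Genes of synapses and vesicles had 6 members of 24 (25.0%, against 4.40% of well-measured probes with a symbol), 5 of them lower. BASP1, an abundant protein of growth cones, was 47847, 50534, 40811 and 39874 in GFP cells of IMR-32 and 7626, 12072, 12911 and 13765 in FOXP1 cells. In CHP-212 it was 3785, 3413, 4207 and 3588 with GFP and 984, 778, 955 and 668 with FOXP1. The GFP arrays were higher at each time, with mean ratios of -1.98 ± 0.50 (SD, n = 4) and -2.16 ± 0.20 (SD, n = 4). In SK-N-BE(2) BASP1 differed by -0.30 with a standard error of 0.15 (adjusted p = 0.741, limma).

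The other lower genes of this list were PPFIA2, a scaffold protein of the presynaptic zone (mean ratios -4.44, with 1 of 4 FOXP1 arrays well above background, and -1.94), DOC2A, a calcium sensor of vesicle release (-1.45 in IMR-32), SYT17, of the synaptotagmin family (-1.46 and -4.22), and NELL2, a secreted neuronal glycoprotein (-1.97 and -1.58). The CHP-212 ratios of DOC2A were -5.27, -1.70, -1.44 and -1.47, so the array of 0 h, with a FOXP1 intensity of 5.55, stands apart from the rest. SYT11, another synaptotagmin, was higher by 1.26 and 1.11. SH3GL3, an endophilin that helps to form endocytic vesicles and that is in no list here, was 865, 866, 796 and 996 in GFP cells of IMR-32 and 38.7, 38.8, 27.3 and 20.5 in FOXP1 cells. In CHP-212 it was 485, 582, 378 and 538 against 38.3, 4.80, 37.6 and 26.1. GFP cells were higher throughout in both lines, and in SK-N-BE(2) the range was low on all 8 arrays, from 23.2 to 46.3.

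Extracellular matrix genes had 7 members of 51 (13.7%, against 4.40% of well-measured probes with a symbol). EMILIN2, a glycoprotein of elastic fibres, CYR61 (now CCN1), a matrix protein that cells attach to, HS3ST5 and SULF1, enzymes that add and remove sulfate on heparan chains, and ITGA11, a collagen receptor, were higher. ADAMTS12, a secreted protease, and CRTAC1, a cartilage protein, were lower. CYR61 had mean ratios of 3.64 ± 0.23 (SD, n = 4) in IMR-32 and 1.36 ± 0.18 (SD, n = 4) in CHP-212. SULF1 was at least 3.71-fold higher in IMR-32 and had a mean ratio of 1.53 in CHP-212. ADAMTS12 was 900, 897, 1149 and 1058 in GFP cells of CHP-212 and 70.8, 66.2, 78.5 and 73.4 in FOXP1 cells, and in IMR-32 it was 24.6, 40.9, 38.3 and 22.7 against 4.78, 4.75, 4.72 and 4.78. CHP-212 thus held a clear signal, whereas FOXP1 cells of IMR-32 were at background, which gives at least 2.18-fold lower.

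In the Wnt pathway 2 of 19 well-measured genes were members (10.5%, against 4.40% of well-measured probes with a symbol), and both are known as inhibitors. SHISA3, which keeps Frizzled receptors from the cell surface, was 1583, 1733, 1432 and 1002 in GFP cells of IMR-32 and 393, 345, 300 and 175 in FOXP1 cells. In CHP-212 it was 1006, 1426, 1318 and 1123 with GFP and 66.1, 62.9, 129 and 108 with FOXP1. GFP cells were higher without overlap, and SK-N-BE(2) cells had 391, 548, 461 and 439 on the arrays labelled FOXP1 and 329, 593, 496 and 485 on the GFP arrays, which overlap.

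KREMEN2, a co-receptor for the Wnt antagonists of the Dickkopf family, was 854, 916, 1292 and 1991 with GFP and 280, 250, 232 and 188 with FOXP1 in IMR-32. In CHP-212 the intensities were 2105, 2351, 3015 and 3539 with GFP and 348, 192, 332 and 198 with FOXP1. GFP cells gained signal with time in both lines while the FOXP1 cells stayed low. In SK-N-BE(2) the log2 difference was -0.34 with a standard error of 0.29 (adjusted p = 0.916, limma). The list of FGF, EGF, Notch and hedgehog signalling had 0 members among 14 well-measured genes, beside 4.40% of well-measured probes with a symbol.

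Noradrenergic and neuroblast genes had 2 members of 14 (14.3%), CRH and HMP19 (now NSG2, a neuronal vesicle protein, with mean ratios of 1.34 and 1.06). Developmental transcription factors had 2 of 35 (5.71%), both higher. The share over all well-measured probes with a symbol was 4.40%, which is near that of the transcription factors. RUNX1, a regulator of blood and sensory neuron development, had mean ratios of 1.47 ± 0.24 (SD, n = 4) and 2.21 ± 0.37 (SD, n = 4), and BCL6, a repressor first known from lymphocytes, had 1.31 and 1.22. Neither was called in SK-N-BE(2).

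Several leading members stood outside these lists. ABCB1, the pump that expels many drugs, was 1428, 919, 1245 and 913 in FOXP1 cells of IMR-32 and 14.2, 27.6, 11.0 and 9.18 in GFP cells. In CHP-212 it was 361, 522, 392 and 475 against 83.3, 161, 76.4 and 68.8. FOXP1 cells were higher in both lines, and in SK-N-BE(2) all 8 arrays lay between 2559 and 3977 with overlap (log2 difference -0.16, adjusted p = 0.941, limma). PDGFRA, a growth factor receptor of mesenchymal and glial precursors, KIAA1324L (now ELAPOR2) and DKFZP564O0823 (now PARM1) had mean ratios of 1.77, 2.19 and 2.49 in IMR-32 and of 3.47, 2.10 and 1.90 in CHP-212. Among lower members, HSD11B2, the enzyme that inactivates cortisol, was 789, 863, 1071 and 1621 with GFP and 111, 143, 113 and 108 with FOXP1 in IMR-32, and 810, 640, 997 and 1053 against 210, 126, 210 and 185 in CHP-212. The GFP arrays were higher without overlap in both lines.

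RPRML, related to a cell cycle inhibitor, had mean ratios of -2.68 in IMR-32 and -3.62 in CHP-212. RASGRP2, an activator of the small GTPase Rap, had -1.58 and -2.33, and C11orf45 (now the antisense transcript KCNJ5-AS1) had -2.01, with 1 of 4 FOXP1 arrays well above background, and -2.09.

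The remaining symbols cover enzymes, carriers and regulators. On the higher side these were the phosphodiesterases PDE1A and PDE4B, which degrade cyclic nucleotides, PKIA, an inhibitor of protein kinase A, NOX4, a producer of hydrogen peroxide, CTSO, a protease of lysosomes, ST8SIA4, which builds polysialic acid on NCAM, the tetraspanin CD9, the adaptor PAG1, the motor subunit DYNC1I1, the spectrin SPTBN1, the endocytic protein EHD3, ATXN1, CXXC5, LRRC1, ZNF649, C9orf150 (now LURAP1L), KIAA1683 (now IQCN), MARCH2 (now MARCHF2), C10orf10 (now DEPP1), RP11-138L21.1 and LOC387763. On the lower side they were PCSK6, a protease that activates precursors of growth factors, ENPP2 (autotaxin), which makes lysophosphatidic acid, EPHX2, an epoxide hydrolase, the glucose carrier SLC2A4, the carriers SLCO4A1 and SLC35F2, the ATP-gated channel P2RX5, LHX6, a homeobox gene of interneurons, UGT3A2, USP51, PELI2, KLRG1, NHS, ARHGAP9, LOH3CR2A (now LINC00312) and C22orf16 (now CHCHD10). Their mean ratios were between 1.00 (LOC387763) and 3.92 (ZNF649) in IMR-32 on the higher side and between -3.79 (PCSK6) and -1.08 (P2RX5) on the lower.

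Cell-type markers could be read in part. Of 14 markers of noradrenergic neuroblastoma cells, 5 have a probe with a symbol (DBH, TH, CHGB, STMN2 and ELAVL4) and 0 of these were members. In IMR-32 their summed intensity was 95623, 101084, 126997 and 154690 with FOXP1 and 32051, 31064, 39538 and 50336 with GFP, with the STMN2 probe the brightest on all arrays but the GFP array of 0 h. In CHP-212 the sums were 27211, 38795, 36610 and 46579 with FOXP1 and 23215, 25040, 33847 and 37440 with GFP. The sums were higher with FOXP1 at each time in both lines, without overlap in IMR-32 and with overlap in CHP-212. Probes of different genes are not on a common scale, so a sum follows its brightest probe and measures no abundance. ELAVL4 went the other way in IMR-32, with 7238, 7211, 7294 and 7268 with FOXP1 and 14897, 13002, 10671 and 9788 with GFP. In CHP-212 its mean ratio was 2.47. Mean ratios in IMR-32 and CHP-212 were 3.97 and 2.79 for DBH and 3.39 and 0.20 for TH. They were 2.94 and 0.51 for CHGB and 1.75 and 0.37 for STMN2. DBH, CHGB and ELAVL4 were well above background on only 2 of 4 GFP arrays of CHP-212.

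Of 16 fibroblast or mesenchymal markers, 5 could be read (PRRX1, PRRX2, DCN, PDGFRA and LOX), and only PDGFRA was a member. Their summed intensity in IMR-32 was 5170, 4551, 6060 and 5880 with FOXP1 and 6550, 7495, 6593 and 6813 with GFP, and PRRX1 stayed near background throughout. In CHP-212 the sums were 12486, 9133, 8843 and 9166 with FOXP1 and 11665, 15844, 14728 and 14208 with GFP. The single markers did not move alike. Mean ratios in IMR-32 and CHP-212 were 1.77 and 3.47 for PDGFRA and -1.73 and 0.07 for PRRX2. They were -0.26 and -1.47 for DCN and -1.72 and -0.29 for LOX. In IMR-32 the brightest of these probes was PRRX2 with GFP and PDGFRA with FOXP1. Among 9 Schwann cell markers CDH19 and NGFR could be read, and CDH19 was near background throughout IMR-32 and CHP-212. NGFR was 9.38, 6.51, 6.40 and 7.55 with FOXP1 and 16.4, 19.7, 56.0 and 103 with GFP in IMR-32. Its CHP-212 intensities were 1700, 2141, 1872 and 1731 with FOXP1 and 985, 1190, 1862 and 1573 with GFP. FOXP1 cells were the low group in IMR-32, at background on all 4 arrays, and the groups overlapped in CHP-212. The sums of the 2 markers were 11.0 to 14.6 with FOXP1 and 24.2 to 108 with GFP in IMR-32, and 1706 to 2146 and 991 to 1868 in CHP-212. The part of these markers in the members' ratios was not tested.

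Promoter windows were available for 60 member genes, 36 higher and 24 lower, as 300 bases of the RefSeq assembly GRCh38.p14, from 250 before to 50 after the annotated start. Because the transgene encodes a forkhead factor, the windows were searched on both strands for the forkhead core letters TGTTTAC and TATTTAT, which do not overlap each other in any window shown. TGTTTAC was in 1 higher (2.78%) and 0 lower windows, against 4.19% of the windows of 27305 genes, and TATTTAT was in 1 (2.78%) and 1 (4.17%), against 6.09%. Only 60 of 150 members have a window, so a comparison of these shares is void. The 3 windows that hold a match are shown 5′ to 3′ on the gene's strand, with the matched letters of either strand in capitals. They come from chr2:182523032-182523331 (PDE1A, minus strand), chr10:44978760-44979059 (C10orf10, minus strand) and chr12:81369320-81369619 (PPFIA2, minus strand), and the capitals begin -130, -180 and, for the first of 2 in PPFIA2, -169 bases from the start.
PDE1A: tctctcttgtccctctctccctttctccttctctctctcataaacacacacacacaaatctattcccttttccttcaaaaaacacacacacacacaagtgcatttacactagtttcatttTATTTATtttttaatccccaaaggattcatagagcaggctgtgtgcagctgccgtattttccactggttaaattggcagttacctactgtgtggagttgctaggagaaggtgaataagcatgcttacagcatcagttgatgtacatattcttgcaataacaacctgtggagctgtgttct
C10orf10: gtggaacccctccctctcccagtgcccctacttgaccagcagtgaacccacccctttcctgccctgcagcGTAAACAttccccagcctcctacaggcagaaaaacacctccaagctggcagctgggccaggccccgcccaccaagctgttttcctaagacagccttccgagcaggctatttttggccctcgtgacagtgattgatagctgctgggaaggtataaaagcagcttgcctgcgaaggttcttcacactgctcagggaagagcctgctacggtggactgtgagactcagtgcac
PPFIA2: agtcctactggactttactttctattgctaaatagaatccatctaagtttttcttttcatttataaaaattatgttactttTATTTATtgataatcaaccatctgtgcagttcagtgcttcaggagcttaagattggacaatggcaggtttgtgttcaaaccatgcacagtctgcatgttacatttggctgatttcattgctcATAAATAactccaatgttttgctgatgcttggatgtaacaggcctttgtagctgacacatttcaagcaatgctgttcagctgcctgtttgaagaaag
A match of these letters is not a binding site. PDE1A was at least 1.61-fold higher in IMR-32, where 0 GFP arrays were well above background, and had a mean log2 ratio of 3.25 in CHP-212. C10orf10 had mean ratios of 2.69, with 1 of 4 GFP arrays well above background, and 2.13, and PPFIA2 had the lower ratios given with the synapse genes.

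The question left for SK-N-BE(2) is whether the members move alike in a line that did not choose them. They did not as a group. Its arrays were compared with limma over 34044 probes well above background on at least 4 of 8 arrays, with a call at an adjusted p under 0.05 and a fold of at least 2, and 242 probes (0.711%) passed. With the FOXP1 label 145 of them were higher (0.426%) and 97 lower (0.285%). Among the members, 75 higher and 55 lower ones could be tested, and 12 and 8 were too dim. Of the 75 higher members 7 (9.33%) were called lower and 0 called higher, and of the 55 lower members 2 (3.64%) were called higher and 0 called lower. All 9 calls by this fit thus ran against the other lines. This direction follows the array labels, with which the FOXP1 probe was not higher in SK-N-BE(2). The labels themselves were not tested.

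Direction in SK-N-BE(2) was mixed over all tested members, the 9 called ones included. At an unadjusted p under 0.05, limma found 9 higher members higher (12.0%) and 14 lower (18.7%), and 11 lower members higher (20.0%) and 4 lower (7.27%), where all tested probes gave 3.66% higher, 4.01% lower and 7.67% in either direction. All 4 ratios were above 0 in 19 higher (25.3%) and 16 lower members (29.1%), against 13.1% of tested probes, and below 0 in 22 (29.3%) and 11 (20.0%), against 15.9%. All 4 were at least 0.8 in 0 higher and 2 lower members, against 0.693%, and at most -0.8 in 7 higher members and 1 lower member, against 0.555%. The mean ratio had a median of -0.08 in the higher and -0.03 in the lower members, beside -0.02 in all tested probes. It reached from -1.22 to 0.48 (10th to 90th percentile) in the higher and from -0.65 to 0.82 in the lower members, and from -0.40 to 0.37 in all probes. No test of the list was made.

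**Figure D3:**
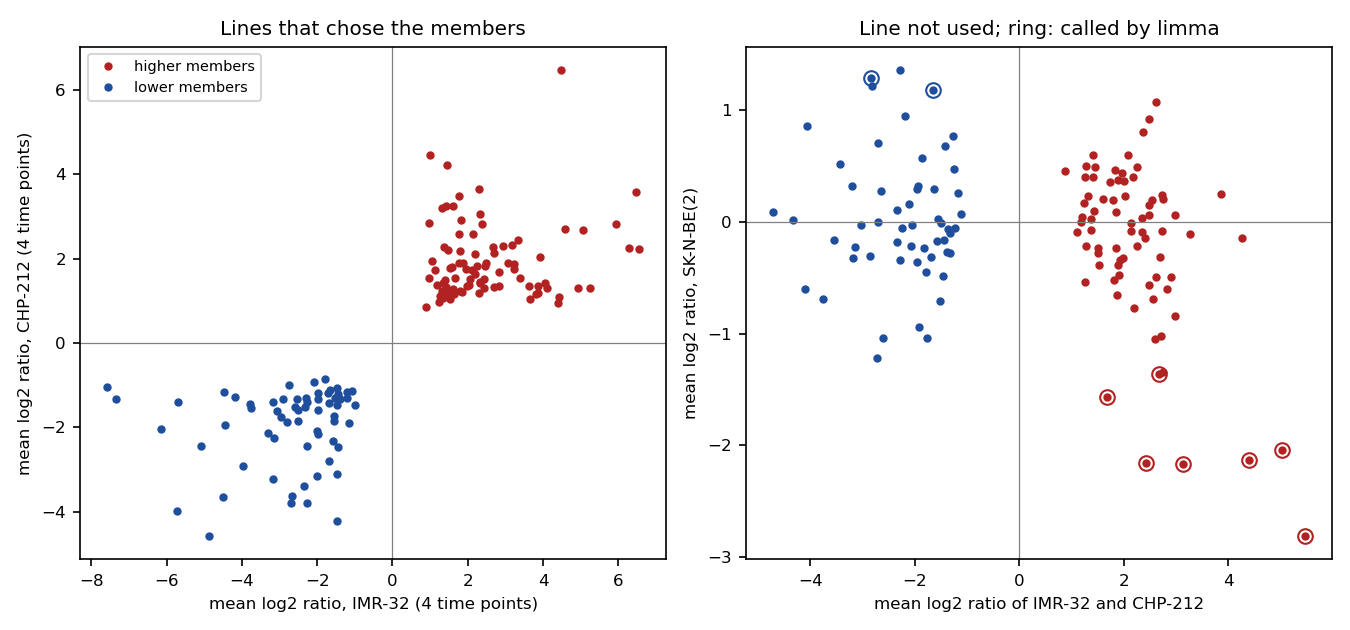
Mean log2 ratio over 4 time points for each member in CHP-212 against IMR-32 (left) and, for the members tested, in SK-N-BE(2) against the average of the other lines (right), with higher members in red, lower members in blue and rings around members called in SK-N-BE(2). The 7 ringed higher members lie below 0 and the 2 ringed lower members above 0.

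The counts depended on the fit. When the model pairs the arrays of an hour, by time point as a block, 477 probes and 12 members were called, 10 against and 2 along with the other lines. After quantile normalization 9 members were called, of which 7 against and 2 (PCSK6 and a probe without a symbol, both lower) along, and 7 of the 9 were shared with the calls above. The unpaired test of the study's methods with adjusted p-values left 3 member calls and the later 3 time points alone left 2, all against. Leaving out the FOXP1-labelled array of 12 or 72 h or the GFP array of 0 or 12 h left 4 member calls in each case.

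EMILIN2 had the smallest adjusted p of the 9. Its intensities were 358, 337, 377 and 380 on the arrays labelled FOXP1 and 1679, 1630, 1563 and 1590 on the GFP arrays of SK-N-BE(2). In CHP-212 they were 547, 340, 277 and 276 with FOXP1 and 37.5, 39.0, 30.7 and 39.3 with GFP, and in IMR-32 1098, 1035, 654 and 957 against 289, 357, 285 and 274. GFP arrays were thus the high group in SK-N-BE(2) and the low group in the other lines, with no overlap in any line. With the FOXP1 label EMILIN2 was lower by 2.18 on the log2 scale with a standard error of 0.14 (adjusted p = 0.000308, limma). It was lower at 4 of 4 time points, 0 h included, and kept the call in all 20 alternatives.

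LOC131873, an unmatched locus whose weakest ratio was the largest of all higher members, gave 624, 497, 190 and 347 on the arrays labelled FOXP1 and 3544, 3175, 1953 and 2259 on the GFP arrays of SK-N-BE(2). In CHP-212 it was 6172, 5854, 5309 and 5893 with FOXP1 and 67.2, 93.1, 56.9 and 52.2 with GFP, and in IMR-32 380, 365, 251 and 503 against 21.2, 32.8, 5.38 and 18.3. The order of the groups was turned in SK-N-BE(2), again with no overlap. With the FOXP1 label it was lower by 2.83 with a standard error of 0.34 (adjusted p = 0.0072, limma), and 18 of 20 alternatives kept the call.

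A pair of probes without a symbol behaved alike. UKv4_A_23_P207905 was 10712, 17242, 30610 and 21101 in FOXP1 cells of IMR-32 and 190, 160, 218 and 227 in GFP cells. In SK-N-BE(2) it was 9506, 5810, 3867 and 6199 on the arrays labelled FOXP1 and 29621, 33124, 17271 and 28467 on the GFP arrays. The order was turned without overlap, and the probe was lower by 2.28 with the FOXP1 label (standard error 0.31, adjusted p = 0.0144, limma, kept in 14 of 20 alternatives). UKv4_A_24_P373126 was lower by 2.28 as well (standard error 0.25, adjusted p = 0.00448, limma) and kept the call in all 20, against mean ratios of 4.94 in IMR-32 and 1.31 in CHP-212. Whether they report the same gene is not known from the files used.

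FGL1, a secreted protein of the fibrinogen family made in the liver, was 2043, 1723, 1030 and 1488 on the arrays labelled FOXP1 and 4615, 4278, 3791 and 3150 on the GFP arrays of SK-N-BE(2). The GFP arrays were all higher. With the FOXP1 label FGL1 was lower by 1.42 with a standard error of 0.24 (adjusted p = 0.0422, limma, kept in 9 of 20). Its mean ratios were 4.40 in IMR-32 and 0.94 in CHP-212.

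TM4SF4, a membrane protein of the tetraspan type, was 1318, 1166, 1334 and 636 in FOXP1 cells of IMR-32 and 8.37, 52.7, 4.55 and 10.3 in GFP cells. In SK-N-BE(2) it was 4.66, 7.51, 4.75 and 9.22 on the arrays labelled FOXP1 and 21.4, 26.2, 29.1 and 26.9 on the GFP arrays. The first of these groups was below the limit of background on all 4 arrays, so the transcript was at least 1.89-fold lower there. The fitted difference of -2.37 (adjusted p = 0.0467, limma) depends on signals at background. After normexp correction the log2 difference was -0.33, and 8 of 19 alternatives kept the call.

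SYT17 was the lower member with the smallest adjusted p. It was 173, 170, 111 and 137 on the arrays labelled FOXP1 and 61.3, 91.0, 49.9 and 44.7 on the GFP arrays of SK-N-BE(2), and in CHP-212 102, 90.2, 123 and 102 with FOXP1 and 1422, 1824, 2407 and 2237 with GFP. FOXP1-labelled arrays were the high group only in SK-N-BE(2) among the 3 lines. With the FOXP1 label SYT17 was higher by 1.30 with a standard error of 0.16 (adjusted p = 0.00881, limma, kept in 16 of 20 alternatives). The call was lost after quantile normalization and without 0 h, where the difference was still 1.30 and 1.24. It was also lost after normexp correction, where the difference was 0.84. UKv4_A_32_P108666 was higher by 1.20 with a standard error of 0.19 (adjusted p = 0.029, limma) and kept the call in 7 of 20. After normexp correction its difference was 0.71, and 0 lower members were called higher. PPAP2B (now PLPP3), which removes phosphate from signalling lipids, had ratios of 1.11, 1.34, 1.25 and 1.18 in SK-N-BE(2) and means of -4.47 and -1.17 in the other lines. Its difference of 1.22 had a standard error of 0.47 and was not called (adjusted p = 0.535, limma), but it was with the time point as a block (adjusted p = 0.0103). With normexp correction the difference was 0.70.

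**Figure D4:**
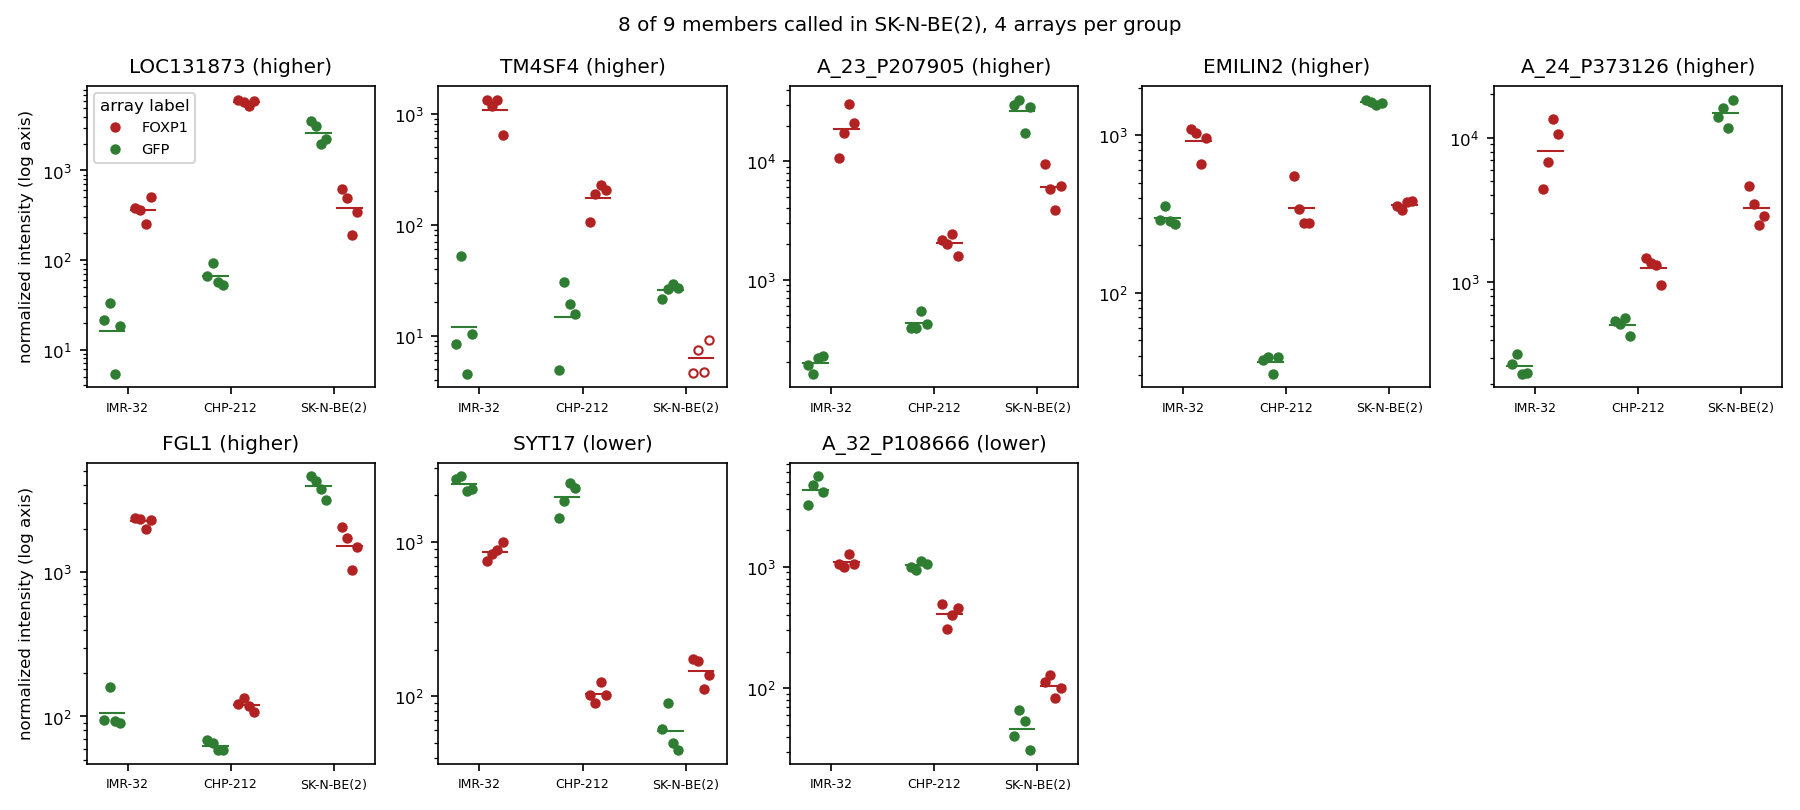
Normalized intensity (log axis) on each array for 8 of the 9 members called in SK-N-BE(2), by line, with FOXP1-labelled arrays in red and GFP arrays in green, a line at the geometric mean and open points for groups with 0 arrays well above background. In each panel the group that is higher in IMR-32 and CHP-212 is the lower group in SK-N-BE(2).

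Among members with a symbol and the same direction in all 3 lines, PCSK6 (difference -0.94, adjusted p = 0.0549, limma) and PDGFRA came closest to a call, followed by C9orf150 (difference 0.95, adjusted p = 0.0822, limma). A lower member without a symbol (difference -1.14, adjusted p = 0.0773, limma) passed in 6 of 20 alternatives. PDGFRA was 77.3, 108, 69.9 and 110 on the arrays labelled FOXP1 and 32.3, 58.6, 40.6 and 42.3 on the GFP arrays of SK-N-BE(2). The groups did not overlap, and the difference of 1.11 with a standard error of 0.21 missed the limit (adjusted p = 0.0604, limma) but passed in 4 of 20 alternatives, among them the time point as a block (adjusted p = 0.0124). After normexp correction its difference was 0.60 (adjusted p = 0.252). NELL2 was 18.0, 19.5, 29.9 and 17.4 against 35.0, 44.6, 47.0 and 44.8, with a difference of -0.96 and a standard error of 0.35 (adjusted p = 0.481, limma). It passed in 1 of 20 alternatives, without the FOXP1-labelled array of 24 h (adjusted p = 0.0467), and its difference was -0.26 after normexp correction (adjusted p = 1.000).

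The GFP cells of the 3 lines also differed in their levels of the members. For 32 of 87 higher members (36.8%) the 4 GFP arrays of SK-N-BE(2) all lay above the 8 GFP arrays of the other lines, against 11.1% of the probes tested in SK-N-BE(2). For 29 of 63 lower members (46.0%) they all lay below, against 8.47%. The reverse held for 12 higher (13.8%) and 7 lower members (11.1%). Of the 9 members called in SK-N-BE(2), 5 of the 7 called lower had the higher GFP level, and both called higher had the lower one. The GFP level is itself part of the difference that made a call, so this tally is partly fixed. In IMR-32 and CHP-212 the low GFP levels of the higher members and the high ones of the lower members are partly fixed by the rule. The member shares also count 12 higher and 8 lower members too dim to test in SK-N-BE(2), so their base is unlike that of the tested probes. Line and slide cannot be told apart either, so these shares are a description. Median log2 intensity of the higher members was 6.75 (IMR-32), 6.95 (CHP-212) and 8.27 (SK-N-BE(2)) with GFP, and 9.20, 8.76 and 8.01 with the FOXP1 label. For the lower members it was 9.67, 9.03 and 7.27 with GFP and 6.06, 6.92 and 7.37 with the FOXP1 label.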

How the data were processed

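Per the file headers, the values deposited by the authors are processed signal intensities of the scanner software Feature Extraction 10.7.3.1, and the series table holds them as normalized linear intensity. Sorted values of that table differed by at most 0.0880% between arrays, so the table is already quantile normalized. The log2 ratios that chose the members come from that table. For SK-N-BE(2), log2 processed signal, scaled by each array's 75th percentile, was fitted with limma over 34044 probes. Outlier spots on the arrays of that line were left out of the fit, and all 24 arrays together had 311 such spots. Every adjusted p is Benjamini-Hochberg over all probes of its fit. The fit was tested on simulated data, where it missed some changed probes and its share of false calls was above the limit of the adjusted p. The normexp alternative used median spot and background intensities because mean intensities are absent. Arrays of the same hour correlated at 0.37, 0.67, 0.584 and 0.435 after group means were removed, so the time point as a block is given beside the counts. Members and lists were chosen with earlier results of these data known. Members described are those in the role lists, those with the weakest ratio farthest from 0, those called in SK-N-BE(2), those with a ratio that grew, and a few picked after their values were seen. Some members are counted but not reported here on their own. Symbols come from a supplementary table held in part, so no overlap with it was counted. Tools were R 4.3.3, limma 3.58.1, Python 3.11.15, numpy 2.4.6, pandas 2.3.3, scipy 1.17.1 and matplotlib 3.10.9.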

Additional observations from a re-analysis of the deposited data

Results flagged for a closer look

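A search for arrays far from the other 3 of their group, by Dixon's ratio, was made in 366 sets of 4 arrays, those of 61 probes taken by the rule for genes to describe, and found 16 (4.37%), where about 1 in 20 would be found by chance. They lay 6 in SK-N-BE(2), 4 in CHP-212 and 6 in IMR-32, and no array was left out for them.

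In SK-N-BE(2), CDH18 was 203 on the FOXP1-labelled array of 0 h against 355 to 386 (ratio 0.873), and SEMA3A was 40.0 on the GFP array of 72 h against 121 to 134 (0.916). On that GFP array SYT11 was 190 against 280 to 289 (0.917), DOC2A was 228 against 132 to 139 (0.899) and ADAMTS12 was 7.99 against 4.65 to 4.86 (0.918). CYR61 was 15.4 on the FOXP1-labelled array of 72 h against 5.23 to 6.21 (0.841).

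In CHP-212, PLXND1 was 23.8 on the GFP array of 72 h against 41.6 to 44.0 (0.909) and GRIA3 was 31.1 on the GFP array of 12 h against 56.7 to 59.8 (0.917). On the FOXP1 array of 0 h SYT11 was 55.7 against 69.8 to 72.1 (0.873) and PCDHB16 was 130 against 68.9 to 71.1 (0.951).

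In IMR-32, SEMA3A was 8.35 on the FOXP1 array of 0 h against 4.75 to 4.76 (0.997) and RPRML was 138 there against 191 to 201 (0.861). HSD11B2 was 143 on the FOXP1 array of 12 h against 108 to 113 (0.848), and CRTAC1 was 36.2 on the FOXP1 array of 24 h against 66.8 to 74.6 (0.847). On the GFP array of 12 h GRIA3 was 20.6 against 6.98 to 7.49 (0.934) and FGL1 was 159 against 90.4 to 94.8 (0.915).

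All 4 ratios of SK-N-BE(2) were on the other side of 0 from the other lines in 24 higher and 17 lower members, of which 16 are among those 61 probes. The mean ratio in SK-N-BE(2) was -0.49 for CDH18, -2.16 for EMILIN2, -0.52 for HS3ST5, -2.81 for LOC131873 and -2.04 for TM4SF4. It was -0.77 for DKFZP564O0823, -2.13 for UKv4_A_23_P207905, -2.17 for UKv4_A_24_P373126 and -1.36 for FGL1, all higher members. Among lower members it was 1.36 for CRTAC1, 1.43 for C11orf45, 0.30 for RASGRP2, 0.86 for UKv4_A_23_P48988, 1.29 for SYT17, 1.18 for UKv4_A_32_P108666 and 1.22 for PPAP2B. For CRTAC1 the 12 h ratio was 2.76, from an outlier spot of 236 against 21.0 to 42.1 on the other FOXP1-labelled arrays, and the fit without that spot gave 0.85 (adjusted p = 0.582, limma). For C11orf45 the 24 h ratio was 3.34 against 0.73, 0.91 and 0.74 at the other times, 0 GFP arrays were well above background, and the probe was too dim to test. The difference between lines was not tested.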

How the results depend on the processing

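The count of 242 probes in SK-N-BE(2) was 477 with the time point as a block, 121 with the unpaired test and adjusted p-values, 537 with unadjusted p-values, 40 without 0 h and 127 to 213 without an array. The FOXP1-labelled arrays of 0, 12 and 72 h and the GFP arrays of 0, 12 and 24 h moved it most. The 9 member calls were 3 with the unpaired test, 2 without 0 h and 4 to 7 without an array. They were 12 when time points were blocked, and 11 when slides were blocked, when all 24 arrays shared a fit or when the unpaired test used unadjusted p-values. In each of these settings 2 of the calls had the direction of the other lines. The values that chose the members were already quantile normalized. With processed signal scaled by the 75th percentile instead, higher and lower members numbered 84 and 53, of which 77 and 51 were shared. They numbered 41 and 29 after normexp and quantile normalization, 54 and 34 at a limit of 1, and 149 and 116 at 0.6. They were 44 and 27 when well above background on all arrays, and 95 to 116 and 73 to 107 without a time point. The median SK-N-BE(2) ratio of higher members was -0.01 after normexp, -0.00 for probes well above background on all 8 arrays and -0.11 to 0.01 without an array. That of lower members was -0.14 to 0.06 without an array. The cause was not tested. Each group is a culture followed over time, so independent cultures were not measured.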
